A study of Zea mays with 6 samples.

Results

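The plastid genes ndhC (ZemaCp029), ndhK (ZemaCp028) and ndhJ (ZemaCp027) lie side by side in the maize plastid genome and form an operon. They were taken by their locus tags, and all 3 were found among the 33953 features of each file. Leaf RNA had been sequenced from transgenic and control plants of the maize inbred line KN5585, with 3 libraries in each group. The transgenic plants had been made to produce poly-γ-glutamic acid, a glutamate polymer, per the title of the series. Both groups were at the 3-leaf stage and had gone 5 days without water, when the soil held 9.8% water, and well-watered plants were not analysed here, so the values do not show what drought did. The labels name neither the promoter of the transgene nor the number of transgenic events. Separate plants are not stated as the source of the libraries of a group either. The p-values hence cover the spread between libraries, which may be technical.

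The NDH complex is an enzyme of the thylakoid membrane related to the respiratory complex I. It takes electrons from ferredoxin, which photosystem I reduces, and passes them to plastoquinone, and so returns them to the electron transport chain in cyclic flow. In maize, a C4 plant, this route is known above all from bundle sheath chloroplasts, which need ATP more than reducing power. NdhC is a membrane subunit, whereas NdhK and NdhJ belong to the arm that joins the membrane part to the site of electron entry. NdhK is among the subunits that carry iron-sulfur clusters in relatives of the complex. The other plastid-encoded subunits are NdhA, NdhB and NdhD to NdhI. In land plants ndhC, ndhK and ndhJ are transcribed together, with ndhC first.

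All 3 operon genes were higher in transgenic leaves, and by unequal amounts. The level of ndhC was 3.43-fold, that of ndhK 2.71-fold and that of ndhJ 1.66-fold that of control leaves. The order of the rises thus followed the order of the genes from ndhC to ndhJ. The values are FPKM, fragments per kilobase of gene and per library size. They are scaled by length, but whether the library kit captured the RNA of different plastid genes alike was not tested. Comparisons between genes are therefore comparisons of FPKM and may differ from those of transcript numbers.

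For ndhC, the 3 transgenic libraries had 923, 994 and 888 FPKM, against 291, 265 and 261 FPKM in the 3 control libraries. Its mean was 935 ± 54.4 FPKM in transgenic leaves and 272 ± 15.9 FPKM in control leaves (SD, n = 3 each). The lowest transgenic library stood far above the highest control library. Among the plastid genes analysed here, which leave out rbcL and psbD, none had a higher level than ndhC in any transgenic library. On the scale of log2(FPKM + 1) the difference was 1.78 (95% interval 1.63 to 1.92, limma, adjusted p = 2.01e-08).

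For ndhK, the transgenic libraries had 899, 865 and 781 FPKM, against 328, 295 and 315 FPKM in the control libraries. The means were 848 ± 60.7 FPKM in transgenic leaves and 313 ± 16.5 FPKM in control leaves (SD, n = 3 each), and again the groups did not overlap. The difference was 1.43 on the log2(FPKM + 1) scale (95% interval 1.28 to 1.58, limma, adjusted p = 1.13e-07).

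For ndhJ, the lowest of the operon in every library, the transgenic libraries had 159.6, 172 and 147 FPKM, against 101, 89.0 and 98.9 FPKM in the control libraries. Its means were 159.6 ± 12.8 FPKM in transgenic leaves and 96.4 ± 6.54 FPKM in control leaves (SD, n = 3 each). The groups did not overlap here either, although the distance between them was the smallest of the operon. The difference was 0.72 on the log2(FPKM + 1) scale (95% interval 0.53 to 0.91, limma, adjusted p = 4.57e-05). The 95% intervals of ndhC, ndhK and ndhJ did not overlap each other.

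**Figure D1:**
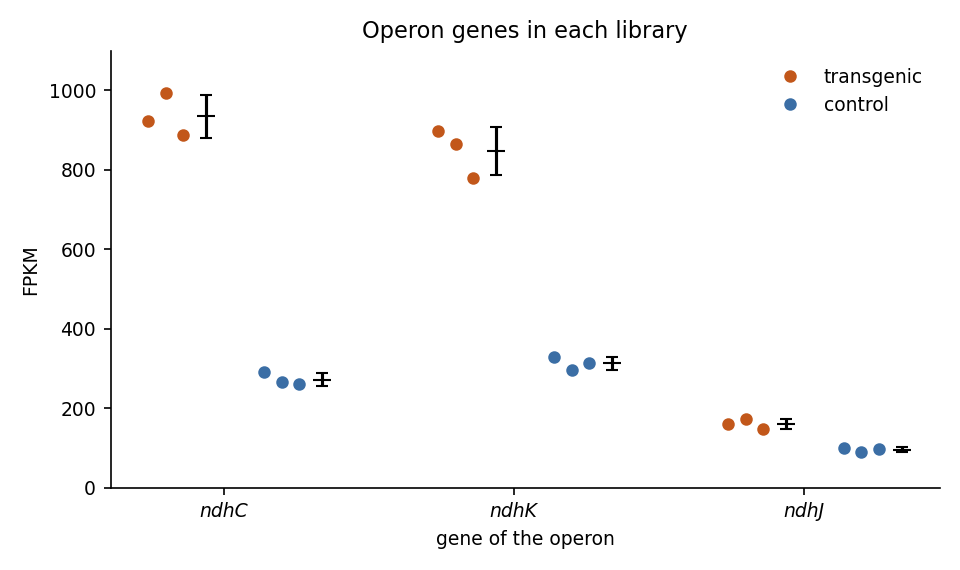
FPKM of ndhC, ndhK and ndhJ in each library, transgenic left of control for each gene; points are libraries, and the black marks show mean ± SD of 3 libraries. The transgenic libraries lie above the control libraries for each gene, with means of 935 against 272 FPKM for ndhC, 848 against 313 for ndhK and 159.6 against 96.4 for ndhJ.

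These calls have to be read against a transcriptome in which most features differed. Of 22200 features with a mean of at least 1 FPKM, 73% passed the threshold of adjusted p below 0.05. Higher calls in transgenic leaves made up 27% and lower calls 45.9% of the tested features. The groups did not overlap in 75.3% of the tested features, and every transgenic library stood above every control library in 28% of them, as it did for the operon genes. The median difference of all tested features was -0.31 on the log2(FPKM + 1) scale, and relative to it ndhC, ndhK and ndhJ were higher by 2.08, 1.74 and 1.03. The split into higher and lower features depended on the scaling, with 5996 higher and 10199 lower as deposited and 7986 higher and 7533 lower after median-of-ratios scaling. With median-of-ratios scaling the differences of ndhC, ndhK and ndhJ were 2.16, 1.82 and 1.11.

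The plastid total was also higher. Their share of all FPKM was 0.496 to 0.570% in transgenic and 0.193 to 0.221% in control libraries, and of 66 tested plastid features, with identical copies taken once, 41 rose, 11 fell and 14 missed the threshold. Among these 66, the difference of ndhC ranked 23, that of ndhK 27 and that of ndhJ 40, around a plastid median of 1.07. Summed over the operon, the libraries had 1982, 2032 and 1815 FPKM in transgenic leaves, against 720, 650 and 676 FPKM in control leaves, a 2.85-fold difference of the means. The rest of the plastid features differed 2.61-fold. The fold of ndhC therefore lay above, that of ndhK close to, and that of ndhJ below that of the remaining plastid features. The library kit was one for mRNA, and whether the groups differed in the capture of plastid RNA was not tested. In a whole leaf, fewer cells of a type and less RNA per cell cannot be told apart.

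The operon was a large and nearly constant part of the plastid FPKM summed here. That sum counts repeated copies each time and leaves out rbcL and psbD, which were not analysed here. The operon held 28.7, 29.0 and 29.6% of the FPKM of all plastid features in transgenic libraries, against 26.9, 27.5 and 27.5% in control libraries. The groups did not overlap, yet the difference of the means was only 1.78 percentage points (exact permutation test, two-sided, p = 0.1). With 3 libraries against 3 that test cannot give a p below 0.1, which applies to each ratio below as well. Over plastid protein-coding features with copies taken once, the operon held 31.4 to 32.5% in transgenic and 29.7 to 30.5% in control libraries.

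Within the operon the proportions of the genes differed between the groups. Of the summed operon FPKM, ndhC made up 48.1 ± 1.35% in transgenic and 39.9 ± 1.13% in control libraries, ndhK 43.6 ± 1.5% and 45.9 ± 0.670%, and ndhJ 8.21 ± 0.242% and 14.1 ± 0.474% (SD, n = 3 each). These shares add up to the whole, so that a larger share of ndhC lowers the others. Ratios of FPKM within a library, which do not depend on its depth or on a single scaling factor, were therefore compared for each pair of genes. Quantile normalization, which is no such factor, can change them.

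The ratio of ndhK to ndhC was 0.973, 0.869 and 0.880 in the transgenic libraries, against 1.13, 1.11 and 1.21 in the control libraries. In each transgenic library ndhC had the higher FPKM, and in each control library ndhK had. In transgenic leaves this order rests on the ratios within libraries, since the ranges of the levels, 888 to 994 FPKM for ndhC and 781 to 899 FPKM for ndhK, overlapped. In control leaves the ranges, 261 to 291 FPKM for ndhC and 295 to 328 FPKM for ndhK, did not overlap. On the log2 scale the ratio was -0.14 ± 0.09 in transgenic and 0.20 ± 0.06 in control libraries (SD, n = 3 each), a difference of -0.34 (exact permutation test, two-sided, p = 0.1, and adjusted p = 0.1 over the 3 ratios).

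The ratio of ndhJ to ndhC, from the last to the first gene of the operon, was 0.173, 0.173 and 0.166 in the transgenic libraries, against 0.349, 0.336 and 0.379 in the control libraries. The transgenic ratios thus lay well below all control ratios and close to each other. The log2 ratio was -2.55 ± 0.04 in transgenic and -1.5 ± 0.09 in control libraries (SD, n = 3 each), a difference of -1.05 (exact permutation test, two-sided, p = 0.1, and adjusted p = 0.1 over the 3 ratios).

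The ratio of ndhJ to ndhK was 0.178, 0.199 and 0.188 in the transgenic libraries, against 0.309, 0.301 and 0.314 in the control libraries. Here too no transgenic ratio reached the control range. The log2 ratio was -2.41 ± 0.08 in transgenic and -1.70 ± 0.03 in control libraries (SD, n = 3 each), a difference of -0.71 (exact permutation test, two-sided, p = 0.1, and adjusted p = 0.1 over the 3 ratios). With quantile-normalized values this difference was -0.44.

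**Figure D2:**
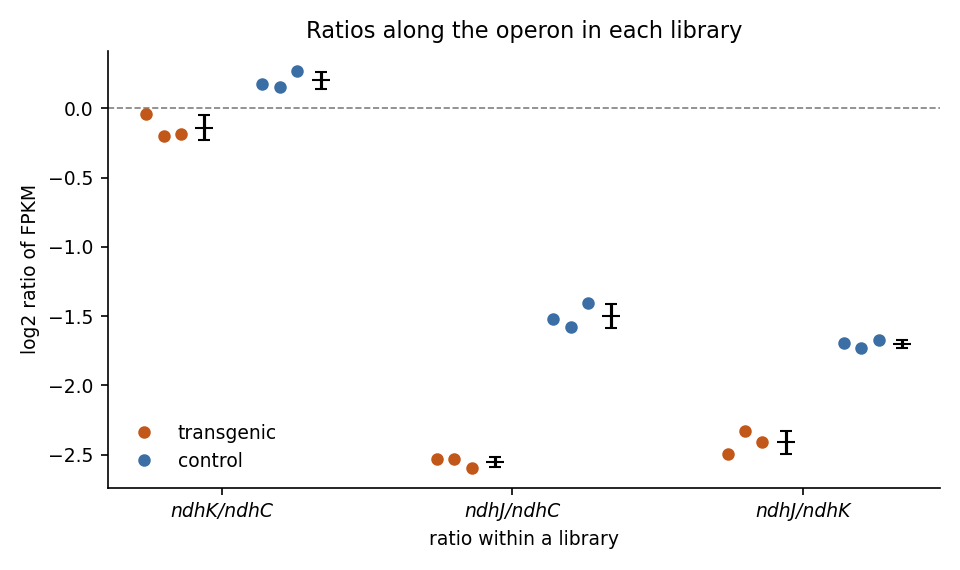
Log2 ratio of FPKM within each library for ndhK/ndhC, ndhJ/ndhC and ndhJ/ndhK, transgenic left of control; points are libraries, black marks show mean ± SD of 3 libraries, and the dashed line marks equal levels. The groups do not overlap for any of the 3 ratios, and ndhK/ndhC lies below the dashed line in the transgenic and above it in the control libraries.

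The remaining plastid ndh genes were at far lower levels. The files held values for all 8 of them, ndhB with 2 copies of identical values that were counted once. In transgenic libraries their highest member reached 3.09 to 3.68 FPKM, and in control libraries 1.2 to 2.56 FPKM. The level of ndhJ, the lowest operon gene, was 39.9 to 51.6 times that of the highest of these 8 genes in transgenic and 39.6 to 82.4 times in control libraries. By mean level the order in transgenic leaves was ndhC, ndhK, ndhJ, ndhD, ndhB, ndhH, ndhF, ndhG, ndhI, ndhA and ndhE. Below ndhJ, the neighbours ndhH and ndhF overlapped there, as did those from ndhG downward, whereas ndhD, ndhB and ndhH stood apart from each other. In control leaves the order was ndhK, ndhC, ndhJ, ndhD, ndhB, ndhF, ndhI, ndhE, ndhA, ndhH and ndhG, and all neighbours from ndhD downward overlapped.

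Of these 8 genes, 3 reached the mean of 1 FPKM needed for the test and 5 did not, and 1 of the 3 rose. This was ndhD, a membrane subunit, with 3.09, 3.41 and 3.68 FPKM in transgenic and 2.56, 2.20 and 1.07 FPKM in control libraries. Its difference was 0.61 on the log2(FPKM + 1) scale (limma, adjusted p = 0.0422), and the call was lost in 7 of the 13 alternatives that could test it, among them the replicate block (adjusted p = 0.0633). Leaving out transgenic replicate 1, 2 or 3 or control replicate 3 also ended it, with adjusted p of 0.0768, 0.101, 0.119 and 0.102, and without control replicate 3 the difference was 0.38.

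For ndhB, another membrane subunit, the transgenic libraries had 2.73, 2.46 and 2.32 FPKM, against 1.57, 2.18 and 1.15 FPKM in the control libraries. These groups did not overlap, but the difference of 0.43 did not pass (limma, adjusted p = 0.0941). It passed with quantile normalization (adjusted p = 0.0353), after median-of-ratios scaling (adjusted p = 0.0146), without the variance trend (adjusted p = 0.0440) and without control replicate 2 (adjusted p = 0.0321). For ndhF, a large membrane subunit, the transgenic libraries had 1.38, 0.95 and 1.21 FPKM, against 1.91, 1.66 and 1.2 FPKM in the control libraries. Its groups overlapped, and the difference of -0.24 did not pass (limma, adjusted p = 0.322). It was -0.02 after median-of-ratios scaling, -0.12 after quantile normalization, -0.39 with a pseudocount of 0.1 and -0.16 without control replicate 1, and passed in none of its 13 alternatives.

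The 5 genes below the minimum were ndhA, ndhE, ndhG, ndhH and ndhI. Of these, ndhH had 1.40, 1.58 and 0.88 FPKM in transgenic and 0, 0.41 and 0.11 FPKM in control libraries, without overlap. The others stayed at or below 0.69 FPKM in transgenic and 1.32 FPKM in control libraries, with overlapping groups and each listed at 0 in at least 1 library. The median difference over the 3 tested genes outside the operon was 0.43 as deposited and 0.68 after median-of-ratios scaling. Over all 8, with no filter on low values, it was 0.006, beside -0.13 for all 31918 features of that fit. The median over the operon genes was 1.43 under either filter.

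**Figure D3:**
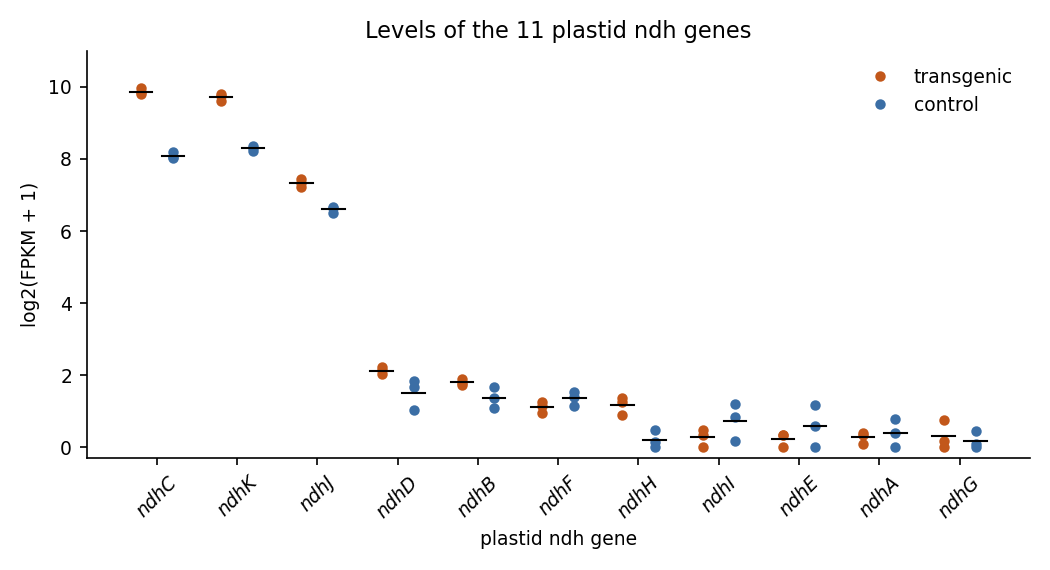
Level of the 11 plastid ndh genes as log2(FPKM + 1) in each library, transgenic left of control; points are libraries and black lines are means of 3 libraries. The 3 operon genes stand far above the other 8, whose highest value in any library is 3.68 FPKM.

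The tested neighbours on either side, rps4 and atpE, differed by more than the operon genes. In the RefSeq gene order rps4, a ribosomal protein gene, is the nearest protein-coding gene beyond ndhJ, and atpE and atpB, for the epsilon and beta subunits of the ATP synthase, follow beyond ndhC; only tRNA genes lie between. For rps4, the transgenic libraries had 89.3, 83.5 and 74.5 FPKM, against 16.8, 11.8 and 9.73 FPKM in the control libraries. Its difference of 2.63 (95% interval 2.23 to 3.02, limma, adjusted p = 1.29e-06) was above those of all operon genes. The ratio of ndhJ to rps4 was 1.79, 2.07 and 1.97 in transgenic and 6.02, 7.54 and 10.2 in control libraries.

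On the other side, atpE had 48.5, 54.7 and 51.0 FPKM in transgenic and 1.45, 0 and 1.08 FPKM in control libraries. The difference of 4.93 (95% interval 4.24 to 5.61, limma, adjusted p = 7.10e-07) was thus the larger of the neighbours' rises, from a control level near 0. The gene overlaps atpB in the reference table, so that their reads may be split between them. The level of ndhC was 17.4 to 19.1 times that of atpE in transgenic libraries and 200.4 and 242 times in the 2 control libraries where atpE was above 0. For atpB the values were 1.91, 2.57 and 0 FPKM in transgenic and 0.93, 0.10 and 0.26 FPKM in control libraries, below the minimum for the test. The next gene, rbcL, was not analysed here.

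From rps4 to atpE, the smallest step between neighbouring tested genes was inside the operon. The differences of ndhK and ndhC lay 0.34 apart and those of ndhJ and ndhK 0.71, whereas rps4 and ndhJ lay 1.91 and ndhC and atpE 3.15 apart. Over the 65 pairs of neighbouring tested plastid genes the median distance was 0.986, with quartiles of 0.586 and 1.74. Of these pairs, 10 lay closer together than ndhK and ndhC, and 21 closer than ndhJ and ndhK.

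**Figure D4:**
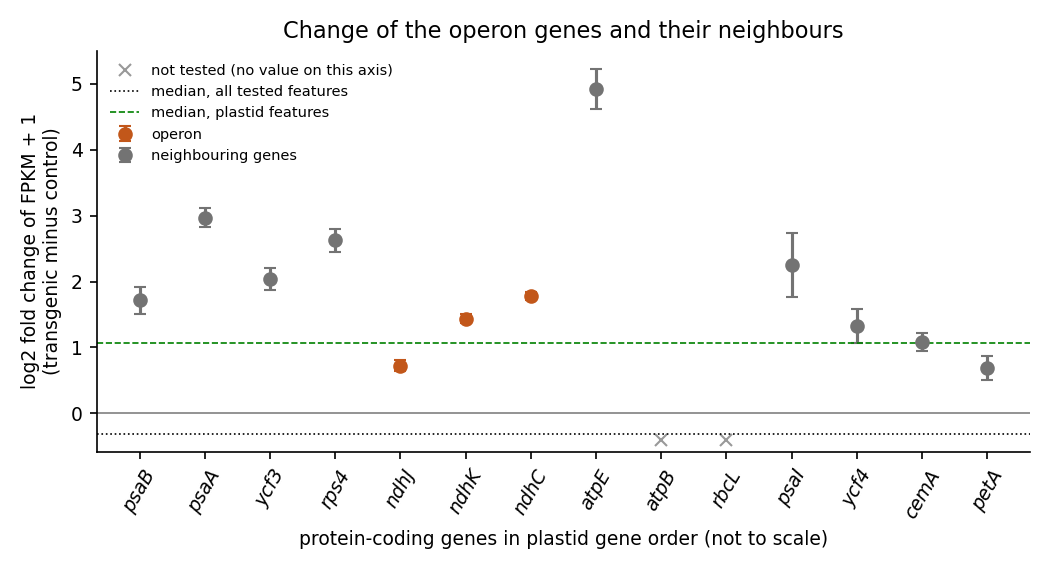
Difference between transgenic and control leaves on the log2(FPKM + 1) scale (± SE) for protein-coding genes in plastid gene order around the operon, with the medians of all tested features (-0.31) and of tested plastid features (1.07) as lines. The operon genes are at 0.72 for ndhJ, 1.43 for ndhK and 1.78 for ndhC, below their neighbours on either side, rps4 at 2.63 and atpE at 4.93; crosses mark genes without a test.

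Of 63 other plastid protein-coding genes tested, those with the profile nearest to the operon mean over the 6 libraries were rps7, rpl22 and cemA. Likeness was measured as the root-mean-square difference of log2(FPKM + 1), centred for each gene, which was 0.053 for rps7, 0.163 for rpl22 and 0.179 for cemA. Against the same mean it was 0.070 for ndhK, 0.236 for ndhC and 0.296 for ndhJ, so that rps7 lay nearer to the operon mean than any of its own genes. With only 2 groups, such a measure depends mainly on the size of the difference between them. The gene rps7, of a protein of the small ribosomal subunit, had 442, 489 and 437 FPKM in transgenic and 208, 181 and 189.9 FPKM in control libraries. It has a second copy with identical values. The gene rpl22, of the large ribosomal subunit, had 382, 373 and 308 FPKM in transgenic and 119, 106 and 119 FPKM in control libraries. The gene cemA, of a plastid envelope protein, had 24.0, 21.0 and 18.9 FPKM in transgenic and 10.1, 10.5 and 8.14 FPKM in control libraries. The groups stood apart for each of these genes, as for the operon genes, but their choice by likeness to the operon mean favours this. Over all tested features the groups did not overlap in 75.3%. Every transgenic library stood above every control library in 28%.

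The complexes that NDH works with held members with differences in both directions. These counts stand beside 27% higher and 45.9% lower calls over all tested features, and 41 higher and 11 lower of 66 tested plastid features. Of 5 plastid genes of photosystem I, which reduces ferredoxin, 4 rose and 1 fell, with a median difference of 2.02. The largest was that of the core gene psaA, at 2.97 (limma, adjusted p = 1.46e-07), with a mean of 39.7 ± 5.07 FPKM in transgenic and 4.20 ± 0.546 FPKM in control leaves (SD, n = 3 each). The smallest was that of psaC, the subunit that passes electrons on towards ferredoxin, at -0.22 (limma, adjusted p = 0.0412), which turned to 0.16 after median-of-ratios scaling and to 0.016 after quantile normalization. Its call was also lost with the replicate block (adjusted p = 0.0586), without the variance trend (adjusted p = 0.0957), without transgenic replicate 1, 2 or 3 and without control replicate 2 (adjusted p of 0.0671, 0.112, 0.0842 and 0.122). Of 6 plastid genes of the cytochrome b6f complex, which takes up the electrons from plastoquinone, the test called 3 higher and 2 lower, and petL did not pass. Their median difference was 0.51. The largest difference was that of petD, at -2.06 (limma, adjusted p = 1.09e-05), with a mean of 10.2 ± 2.25 FPKM in transgenic and 45.7 ± 9.07 FPKM in control leaves (SD, n = 3 each). The smallest was that of petL, at 0.33 (limma, adjusted p = 0.437), and it lay between -0.07 and 0.69 over its alternatives. It was negative without transgenic replicate 3, 0.06 without control replicate 1, 0.65 without transgenic replicate 1 and 0.55 without control replicate 3.

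The operon genes were even between libraries of a group. Their coefficient of variation was 5.82 to 8.01% in transgenic and 5.28 to 6.79% in control libraries, while for ndhB, ndhD and ndhF it was 8.33 to 18.4% in transgenic and 22.7 to 40.0% in control libraries. Those 3 genes had means of at most 2.67 FPKM over all libraries, and values that low vary more. At levels within the range of the operon genes, the coefficient of variation was 6.24% in transgenic and 7.04% in control libraries for rps7. For rpl22 it was 11.45%, above the range of the operon genes, and 6.24%. Both genes were chosen for their likeness to the operon mean over these libraries. Whether such evenness was particular to the operon was therefore not tested. Of 8 plastid genes listed as marks of green leaf, 6 had values and 0 of these were at 0 in any library. Their summed level was 63.5 to 74.9 FPKM in transgenic and 205 to 227 FPKM in control libraries. Without psbA, the gene of a photosystem II reaction centre protein, the sums were 61.8 to 74.5 FPKM in transgenic and 51.7 to 61.3 FPKM in control libraries. In transgenic libraries that sum rested largely on psaA, at 33.9 to 43.4 FPKM. In control libraries it rested largely on psbC, at 37.87 to 45.95 FPKM, with psaA at 3.58 to 4.62 FPKM. Besides psaA, which rose as given above, psaB and petA rose, with differences of 1.72 and 0.69. The genes psbC and psbB, for antenna proteins of photosystem II, fell. The mean of psbC was 12.2 ± 0.679 FPKM in transgenic and 41.0 ± 4.31 FPKM in control leaves (SD, n = 3 each), a difference of -1.67 (limma, adjusted p = 1.16e-06). That of psbB was 1.65 ± 0.529 FPKM in transgenic and 3.61 ± 0.724 FPKM in control leaves (SD, n = 3 each), a difference of -0.81 (limma, adjusted p = 0.0107). For psbA itself, the transgenic libraries had 1.85, 0.41 and 1.64 FPKM, against 165.8, 160.3 and 153 FPKM in the control libraries. Whether the makeup of the leaf tissue has a part in the levels of the operon was not tested.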

How the data were processed

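Leaf RNA of 3 transgenic and 3 control samples was sequenced. Per the labels' protocols, 1.3 µg of total RNA per sample went into a SMARTER mRNA library kit. The deposited files hold FPKM calculated by the authors, rounded to 2 decimals, with 1 library per file. Not given in the sources used here are the aligner, the counting, the use of strand and the annotation. The submitters' processing notes name GRCm38 and mm10, which are mouse builds, so no coordinates or lengths are printed. Symbols and gene order of the plastid came from the RefSeq table of Zm-B73-REFERENCE-NAM-5.0, in which all 104 plastid IDs and 0 of 33702 nuclear IDs matched. Nuclear NDH subunits are therefore not reported.

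FPKM summed to between 1208094 and 1238707 per library, with 26501 to 27689 features above 0. Steps between low values put the relative depth of the libraries within 1.07-fold. That search covered only ratios near equal depth, so it could not have found a larger difference. Because absolute depth is unknown, counting intervals are left out, and 0 FPKM means listed at 0.

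For each feature, transgenic and control libraries were compared on log2(FPKM + 1) by limma (version 3.58.1 in R 4.3.3; eBayes with trend; two-sided; Benjamini-Hochberg over 22200 features with a mean of at least 1 FPKM; threshold 0.05). Differences are transgenic minus control and understate changes of low genes. Ratios and shares were compared by exact permutation over 20 regroupings. The fit was tested on simulated data. Named genes are the operon genes, all plastid ndh genes, the neighbours, the 3 nearest profiles, and the largest and smallest change of the photosystem I and cytochrome b6f lists. Genes listed as marks of green leaf are named as well. The plot of gene order shows further genes by position alone. Members and lists were chosen with earlier results of these data known. Alternatives were other scalings, pseudocounts, filters and variance models, a replicate block and leaving out each library.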

Additional observations from a re-analysis of the deposited data

How the results depend on the processing

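The differences of ndhC, ndhK and ndhJ kept their direction and passed in all 14 alternatives each, at 1.67 to 2.16, 1.32 to 1.82 and 0.66 to 1.11 on the log2(FPKM + 1) scale. The 3 ratios and the operon's share of plastid FPKM kept their sign in all 9 alternatives each. With quantile-normalized values the ratio of ndhJ to ndhC differed by -0.79 and that of ndhJ to ndhK by -0.44 on the log2 scale. The number of other plastid ndh genes that rose, 1 as reported, was 2 after quantile normalization, 2 after median-of-ratios scaling, 2 without the variance trend, 0 with a pseudocount of 0.1 and 0 with the replicate block, and 0 to 2 when 1 library was left out. The cause was not tested. With no filter on low values the number stayed 1, but it was another gene. There ndhD, ndhB and ndhF did not pass (limma, adjusted p of 0.0709, 0.119 and 0.313). The gene that passed was thus among the 5 below the minimum of the main fit. A minimum mean of 5 FPKM left none of the other plastid ndh genes to test. The difference of psaC turned to 0.16 after median-of-ratios scaling and 0.016 after quantile normalization. That of petL lay between -0.069 and 0.65 when 1 library was left out and was negative without transgenic replicate 3. Deviations of libraries with the same replicate number correlated at 0.006, -0.001 and 0.015, which is no sign of pairing. With the replicate block 5935 features were higher and 10087 lower, and the ratios and the share had an exact sign-flip p of 0.25, the smallest that 3 pairs allow. Neither the unknown depth nor 3 libraries a group allow a finer statement on the ndh genes near 1 FPKM.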
